A study of Mus musculus with 4 samples.

Results

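Levels of 10 genes whose names point to other organs were described across the cell classes of mouse medial prefrontal cortex. The genes were the olfactory receptor genes Olfr115 and Olfr239, the T cell receptor constant gene Trbc1, the nuclease gene Dnase1l3, the complement gene C7, the thyroglobulin gene Tg, the leukocyte actin-bundling gene Lcp1, the imprinted gene Zim3, the doublecortin-domain gene Dcdc2c and the testis-expressed gene Tex47. The 10 genes, of 32287 features, were chosen by their large ratios between neuronal and other classes in earlier values of these data. Ratios between neurons and other nuclei, between excitatory and inhibitory nuclei and between neuronal subclasses are therefore given as a description, with no test. They were picked under the label of genes enriched in neurons. By the rule given below 8 of the 10 were called higher in neurons, beside 14.5% of all genes. The choice of the genes used these ratios, so nothing is read from that count. Tg and Lcp1 went against the label, since both were higher in the pooled non-neuronal nuclei.

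The study profiled nuclei of medial prefrontal cortex from C57BL/6J mice aged 9 weeks, collected 24 hours after an injection of DOI, a psychedelic that activates serotonin receptors, or of saline. All samples, the saline controls included, expressed scFLARE2, a light- and calcium-gated reporter system, together with the construct TRE-mCherry-p2a-bReaChES, which codes for a red fluorescent protein and an opsin. Each group, DOI or saline, had 1 female and 1 male sample, 4 samples in all; the number of mice in a sample is not given in the sources used here. The counts were pooled in 1 matrix whose barcodes end in 1 of 4 numbers, here called libraries 1 to 4, and nothing ties a library to a sample, so treatments and sexes were not compared.

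The matrix held 157575088 UMIs (unique molecular identifiers, tags that count RNA molecules) in 22402 barcodes, and 12981 nuclei were kept: 9639 neurons (8293 excitatory and 1346 inhibitory), 2729 non-neuronal nuclei, 542 striatal or immature neurons and 71 in a cluster with no name. Median depth was 10575 UMIs in neurons and 2955 in non-neuronal nuclei, and the 4 libraries gave 1573 to 4187 kept nuclei. Of the barcode sequences, 50 occurred in more than 1 library, 17 of them among kept nuclei. Classes were named from marker genes and are called "-like": IT cells project within the telencephalon, ET cells outside it, CT cells to the thalamus, NP cells nearby, and L6b is the deepest cortical layer. A cluster of 507 nuclei led by Inpp5d and Runx1 carried the microglial genes Cx3cr1 at 632, Csf1r at 585 and C1qa at 360.2 CPM (the gene's UMIs divided by all UMIs of the class, times 1000000). It was shallow, with a median of 2353 UMIs, and by the naming rule it stayed without a class name. All intervals are 95% and cover counting error only, since nuclei are not replicates.

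As background, olfactory receptors are G protein-coupled receptors of the nose, encoded in tandem clusters of related genes, some of them near-identical. Trbc1 encodes the constant part of the T cell receptor beta chain, C7 a component of the membrane attack complex that perforates target cells, Tg the precursor protein of thyroid hormone and Lcp1 the actin bundler L-plastin of leukocytes. Dnase1l3 encodes a secreted endonuclease that clears DNA of dying cells. Zim3 lies in the imprinted Peg3 domain, Dcdc2c encodes a protein with doublecortin domains, which bind microtubules, and Tex47 is named for expression in testis. Because a UMI read from one end of a transcript is assigned by position, a near-identical copy or a gene that overlaps the member bears on each of these counts.

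Coding sequences of 3 groups of near-copies are shown to give how alike the copies are. RNA was read from the 3′ end, so reads need not fall in the stretches shown. On genome build mm10 Olfr115 (ENSMUSG00000092413) lies on chromosome 17 from 37608940 to 37627109 on the minus strand. Olfr116 overlaps it over 6.5 kb on the same strand, and Olfr112, Olfr113 and, on the plus strand, Olfr111 lie beside it. The first 120 coding bases of each follow, 5′ to 3′, from GENCODE M21 transcripts, with bases that differ from Olfr115 at the same position in capitals.
Olfr115: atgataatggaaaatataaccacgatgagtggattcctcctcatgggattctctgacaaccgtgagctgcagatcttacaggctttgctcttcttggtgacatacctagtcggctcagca
Olfr113: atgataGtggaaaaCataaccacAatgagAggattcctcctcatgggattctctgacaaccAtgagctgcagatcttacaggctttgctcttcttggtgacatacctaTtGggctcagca
Olfr112: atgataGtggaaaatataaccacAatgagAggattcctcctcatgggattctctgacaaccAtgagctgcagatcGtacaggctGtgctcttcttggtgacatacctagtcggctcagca
Olfr116: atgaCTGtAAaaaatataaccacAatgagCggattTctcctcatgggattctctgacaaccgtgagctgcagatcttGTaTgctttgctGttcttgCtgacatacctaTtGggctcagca
Olfr111: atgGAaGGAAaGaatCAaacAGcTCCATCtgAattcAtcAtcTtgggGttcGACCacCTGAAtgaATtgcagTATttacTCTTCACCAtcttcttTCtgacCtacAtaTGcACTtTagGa
Against the 936 coding bases of Olfr115, identity was 91.2% for Olfr112, 90.4% for Olfr113 and 88.4% for Olfr116, with longest identical coding runs of 68, 56 and 46 bases. Olfr116 also shares a 304-base exon stretch with Olfr115, outside the coding part. Olfr111 is a more distant relative, at 65.2% of 865 aligned bases and a longest run of 11.

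Olfr239 (ENSMUSG00000093884, chromosome 17, 33191302 to 33202506, plus strand) has the neighbour Olfr55 10.5 kb upstream on the same strand. Their first 120 coding bases, spliced from 2 exons, differ at 2 positions, in capitals in the copy.
Olfr239: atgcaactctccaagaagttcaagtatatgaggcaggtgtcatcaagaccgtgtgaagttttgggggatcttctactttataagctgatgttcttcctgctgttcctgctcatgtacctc
Olfr55: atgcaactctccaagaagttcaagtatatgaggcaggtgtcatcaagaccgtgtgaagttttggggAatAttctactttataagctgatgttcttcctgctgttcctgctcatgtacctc
Over all 957 coding bases the identity was 98.7%, and the longest run shared by any of their transcripts was 591 bases. A read inside such a run cannot be told apart between the genes. How many reads fell there was not tested.

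Trbc1 (ENSMUSG00000076490, chromosome 6, 41538218 to 41539881, plus strand) has its paralog Trbc2 6.8 kb downstream. Their last 120 coding bases, spliced from 2 exons, are the part nearest to the 3′ end that this chemistry reads, and they differ at 19 positions.
Trbc1: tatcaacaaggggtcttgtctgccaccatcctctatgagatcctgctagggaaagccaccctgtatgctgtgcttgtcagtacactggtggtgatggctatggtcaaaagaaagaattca
Trbc2: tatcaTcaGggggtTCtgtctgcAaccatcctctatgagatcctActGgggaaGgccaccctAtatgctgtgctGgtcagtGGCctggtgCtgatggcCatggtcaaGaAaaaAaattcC
Identity over 518 coding bases was 95.6%, with a longest run of 259 bases, so the paralogs differ more at the end shown here than over the rest.

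Neurons were set against non-neuronal nuclei to see how the genes divided between the broad kinds of cell. To be called higher, a gene needed 100 UMIs over both sides, a ratio of 2 or more and the same direction in each of the 4 libraries. By this rule 8 of the 10 genes were higher in neurons and 1 was lower, beside 14.5% of all 16542 genes higher and 26.3% lower; nothing is read from this count, which the choice of the genes used. The median log2 ratio was 3.01 over the 10 genes and -0.42 over all genes. Olfr239 stood at 24.7 CPM in neurons against 0.761 CPM in non-neuronal nuclei (log2 ratio 5.02, 3.97 to 6.34), on 2805 and 7 UMIs. Zim3 had 928 UMIs in neurons and 3 outside them (4.65, 3.09 to 6.93), Dcdc2c 535 and 2 (4.44, 2.58 to 7.49) and Tex47 799 and 3 (4.43, 2.88 to 6.71). The ratio was 3.10 for C7, 2.91 for Olfr115, 2.53 for Dnase1l3 and 2.40 for Trbc1, each resting on 5 to 12 non-neuronal UMIs, so that the order of these genes lies within their counting error. With at most 1% mitochondrial UMIs, which left 181 non-neuronal nuclei, these 4 genes were not called.

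Tg and Lcp1 lay on the other side. Tg stood at 14.4 CPM in neurons against 30.5 CPM in non-neuronal nuclei (log2 ratio -1.08, -1.27 to -0.90, higher in neurons in 1 of 4 libraries) and was not called. Lcp1, at 5.89 and 38.3 CPM, had a log2 ratio of -2.70 (-2.89 to -2.51), and every library had the lower level in neurons. The Inpp5d Runx1 cluster held 270 of the 281 non-neuronal Tg UMIs and 264 of the 352 of Lcp1. Without that cluster, an alternative chosen after seeing the data, Tg was higher in neurons (3.37, 2.53 to 4.38) and Lcp1 was not called (-0.92, -1.24 to -0.58).

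**Figure D1:**
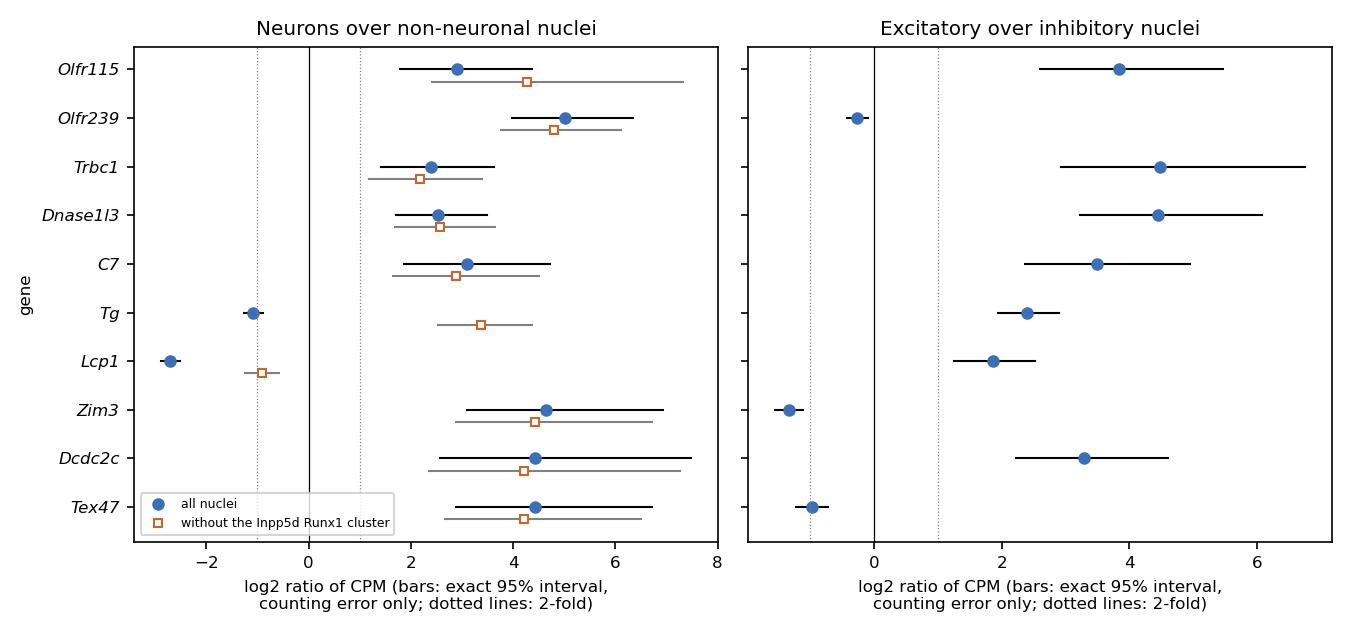
Log2 ratio of summed CPM for each of the 10 genes between neurons and non-neuronal nuclei, with and without the Inpp5d Runx1 cluster, and between excitatory and inhibitory nuclei; points are pooled ratios and bars are 95% counting intervals. Tg moves from -1.08 to 3.37 when the cluster is left out, while Lcp1 stays below 0.

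Among neurons, excitatory nuclei were set against inhibitory nuclei. By the same rule excitatory nuclei had the higher level for 7 of the 10 genes and the lower level for 1, beside 9.14% of 15815 genes higher and 7.52% lower. Trbc1 had 518 excitatory and 3 inhibitory UMIs (log2 ratio 4.48, 2.92 to 6.76) and Dnase1l3 851 and 5 (4.46, 3.23 to 6.08). Ratios were 3.83 for Olfr115, 3.49 for C7, 3.28 for Dcdc2c, 2.40 for Tg and 1.86 for Lcp1. Zim3 was lower in excitatory nuclei, at 6.95 against 17.6 CPM (-1.34, -1.56 to -1.12). Tex47, at -0.98, and Olfr239, at -0.26, fell short of the 2-fold size. Each subclass was called in the same way against the other subclasses of its kind. Of the 10 genes none was higher and 5 were lower in L2/3 IT-like nuclei (3.48% and 5.34% of all genes), and none was higher and 6 were lower in L4/5 IT-like nuclei (2.22% and 6.52%). In L5 IT-like nuclei 1 was higher and 4 were lower (2.11% and 3.9%), in L5 ET-like nuclei 1 and 5 (2.97% and 6.6%) and in L5/6 NP-like nuclei 2 and 5 (4.73% and 9.89%). The counts were 2 and 5 in L6 CT-like (2.55% and 7.87%), 1 and 4 in L6 IT-like (1.7% and 4.73%) and 2 and 4 in L6b-like nuclei (2.93% and 10.8%). Only 3 genes had enough UMIs to be called among inhibitory subclasses, with 1 higher and 1 lower in Pvalb-like (3.35% and 5.18%) and in Sst-like nuclei (2.55% and 3.88%). In Vip-like (3.54% and 6.21%) and Lamp5-like nuclei (3.09% and 6.25%) none was called.

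**Figure D2:**
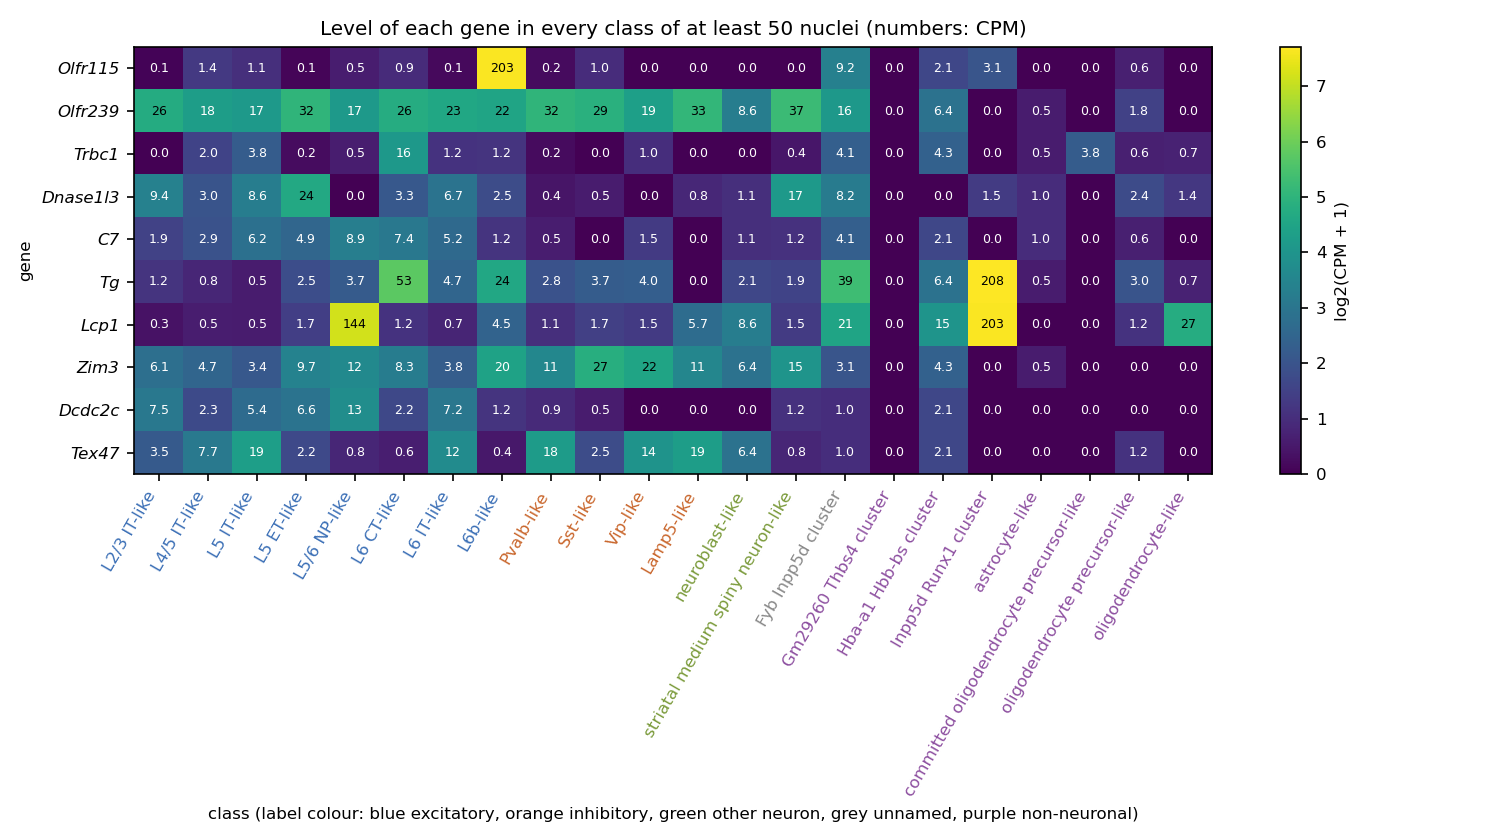
Level of each of the 10 genes (rows) in each cell class or cluster of at least 50 nuclei (columns), as log2(CPM + 1) on the colour scale. Olfr115 peaks in L6b-like, Lcp1 is high in L5/6 NP-like and Inpp5d Runx1 nuclei, Trbc1 peaks in L6 CT-like nuclei and Tg in the Inpp5d Runx1 cluster, with L6 CT-like nuclei its highest neuronal class, while Olfr239 is spread over the neuronal classes.

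Each excitatory subclass was then set against the other excitatory subclasses. Olfr115, an olfactory receptor gene, was highest in L6b-like nuclei. Its level in L6b-like nuclei was 251, 180.4, 291 and 158 CPM in libraries 1 to 4, from 63, 46, 13 and 68 nuclei. Every library had it far above L6 CT-like nuclei, where the highest library stood at 1.70 CPM. Pooled, it stood at 203 CPM (185 to 221) against 0.593 CPM in the other excitatory nuclei, a log2 ratio of 8.42 (8.02 to 8.83), and 2.93% of all 15383 genes were called higher in L6b-like nuclei. Of its 572 UMIs, 494 came from these 190 nuclei.

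Within the subclass the gene was uneven. Of 190 L6b-like nuclei, 98 held an Olfr115 UMI, 51.6% (exact Clopper-Pearson interval 44.2 to 58.9), and 74 nuclei had at least 2. The most in 1 nucleus was 22, and the 10 nuclei with the most held 32.0% of the class's UMIs. With each of the 190 nuclei thinned to 1500 UMIs the share was 24.2%. No oligodendrocyte-like nucleus of 972 had a UMI (median depth 2693 against 11769.5), which allows a share of nuclei with a UMI of up to 0.309% (3 counts of the total) but sets no limit on expression at this depth, and 0.789% of the Inpp5d Runx1 nuclei had one.

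The neighbouring receptor genes lay in the same nuclei. In L6b-like nuclei Olfr112 stood at 148, Olfr111 at 101, Olfr113 at 74.6 and Olfr116 at 32.8 CPM, and in the other named classes each of them was at 3.61 CPM or less. Across the 18 named classes of at least 50 nuclei, log2(CPM + 1) of Olfr115 had a Pearson r of 0.98 with Olfr113 and with Olfr112 and of 0.96 with Olfr111, which lies on the opposite strand 76.5 kb away. These points share libraries and depth, and the r of such a gene rests on 1 class. Among L6b-like nuclei an Olfr115 UMI was found in 39 of 126 without Olfr113 UMIs (31.0%), in 33 of 38 with 1 to 2 (86.8%) and in 25 of 25 with 3 to 9. Median depth in these groups was 11357, 11806 and 13223 UMIs. How far reads of the near-copies were shared out among them was not tested. Olfr111, the most distant in sequence, was also found in the Inpp5d Runx1 cluster, at 40.02 CPM, where Olfr115 was at 3.08 CPM.

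Lcp1, which encodes L-plastin, was highest among neurons in L5/6 NP-like nuclei. Its level in L5/6 NP-like nuclei was 152, 129.9, 225 and 125.4 CPM in libraries 1 to 4. The Inpp5d Runx1 cluster, with 185, 214, 224 and 177 CPM, overlapped this range, and oligodendrocyte-like nuclei lay below both at 11.6, 19.1, 40.9 and 39.9 CPM. Against the other excitatory subclasses the pooled level was 144 (132 to 157) against 0.975 CPM, a log2 ratio of 7.21 (6.89 to 7.54), with 4.73% of all genes called higher in L5/6 NP-like nuclei.

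Lcp1 was detected in 258 of 435 L5/6 NP-like nuclei, 59.3% (54.5 to 64.0), at a median depth of 8189 UMIs, and in 33.3% of the Inpp5d Runx1 nuclei at 2353 UMIs. Thinned to 1500 UMIs, which left out 0 and 53 shallower nuclei, the shares were 18.2% and 23.3%, in the other order. The summed level of 9 microglial markers was 186 CPM in L5/6 NP-like nuclei, within the 133 to 198 CPM of the 12 neuronal subclasses, and 4586 CPM in the Inpp5d Runx1 cluster. Ptprc, the pan-leukocyte surface gene CD45, was at 0.783 CPM in L5/6 NP-like nuclei and 562 CPM in that cluster. Lrrc63 starts 0.2 kb from Lcp1 on the opposite strand and was also highest in L5/6 NP-like nuclei, at 20.6 CPM, with an r of 0.80. Within these nuclei Lcp1 was found in 61.1% of those with an Lrrc63 UMI and in 59.1% of those without.

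Trbc1 and Tg were both highest among neurons in L6 CT-like nuclei. Trbc1 stood there at 15.1, 17.2, 19.0 and 15.3 CPM in the 4 libraries. The next class, L5 IT-like, had 3.71, 3.36, 4.05 and 4.03 CPM, and the values of the classes did not overlap. Against the other excitatory subclasses the pooled level was 16.1 (14.6 to 17.7) against 1.33 CPM, a log2 ratio of 3.59 (3.28 to 3.93), with 2.55% of all genes called higher in L6 CT-like nuclei. A UMI was found in 359 of 2462 nuclei, 14.6%, at a median of 9855 UMIs, against 0.206% of oligodendrocyte-like nuclei.

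Of 16 other T cell genes listed beside Trbc1, 12 had fewer than 100 UMIs. Of the 4 that could be called, Thy1, Trbc2, Cd247 and Zap70, none was higher or lower in neurons, beside 14.5% and 26.3% of all genes. Their levels in neurons ran from 0.897 CPM for Zap70 to 56.8 CPM for Thy1, a surface gene that neurons also carry. The summed level of 8 T cell markers was 6.50 CPM in L6 CT-like nuclei and 3.70 to 11.3 CPM over the neuronal subclasses. Trbc2, the paralog, was at 14.8 CPM in L6 CT-like nuclei but reached 18.1 CPM in oligodendrocyte-like and 18.7 CPM in astrocyte-like nuclei, where Trbc1 was at 0.682 and 0.493 CPM. Its r with Trbc1 across classes was 0.38. Prss2, a trypsinogen gene 13.1 kb upstream on the same strand, had an r of 0.83, above that of all 12537 genes compared, and stood at 6.77 CPM in L6 CT-like nuclei and at 1.38 CPM or less in every other named class. Among L6 CT-like nuclei Trbc1 was found in 23.9% of the 159 with a Prss2 UMI and in 13.9% of the 2303 without.

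Tg stood in L6 CT-like nuclei at 43.5, 75.01, 71.2 and 39.8 CPM in libraries 1 to 4, and in L6b-like nuclei at 24.7, 28.8, 61.3 and 10.5 CPM. Within each library the L6 CT-like value was the higher, although the ranges overlap across libraries. The pooled L6 CT-like level was 53.1 (50.3 to 56.0) against 2.78 CPM in the other excitatory nuclei, a log2 ratio of 4.26 (4.05 to 4.48), and 33.5% of the nuclei had a UMI. The Inpp5d Runx1 cluster was higher still, at 182, 245, 293 and 68.4 CPM, with 35.1% of nuclei at its lower depth. Library 4 was lowest in each of the 3 classes. The summed microglial level of L6 CT-like nuclei, 151 CPM, again lay within the range of the neuronal subclasses. Their summed level of 5 B cell markers, 15.8 CPM, lay above the 0.809 to 6.79 CPM of the other neuronal subclasses. In the Inpp5d Runx1 cluster that sum was 38.5 CPM.

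The Tg gene (chromosome 15, 66670753 to 66850721, plus strand) contains all of Sla, a signalling adaptor gene of lymphocytes, on the opposite strand. Sla had a pattern like that of Tg, at 38.2 CPM in L6 CT-like and 94.7 CPM in Inpp5d Runx1 nuclei, with an r of 0.78. For every 100 Sla UMIs there were 139 Tg UMIs in the first and 220 in the second; these are counts, not levels per length. A Tg UMI was found in 458 of 1745 L6 CT-like nuclei without a Sla UMI (26.2%), in 50.1% of those with 1 to 2 and in 65.4% of those with 3 to 9. Median depth in these groups was 9385, 10939 and 12310.5 UMIs. Sla covers 4.59% of the exon bases of Tg and none of its own exon bases coincide with an exon of Tg. Whether intronic reads were counted, and on which strand, is not given in the sources used here, and the part of Sla in the Tg counts was not tested. Ccn4, 40.6 kb downstream on the strand of Tg, was at 25.4 CPM in L6 CT-like nuclei and had no UMI in the Inpp5d Runx1 cluster.

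The L6 CT-like class joined 2 clusters, of 1309 nuclei led by Gm10635 and Rell1 and of 1153 led by Cpa6 and Spag16, and the genes divided between them differently. C7 was higher in the former, at 12.0 against 3.07 CPM (log2 ratio 1.97, 1.46 to 2.505, in 4 of 4 libraries). Tg was lower there, at 41.9 against 63.7 CPM (-0.60, -0.76 to -0.45, in all 4 libraries), short of 2-fold. Trbc1 stood at 18.6 against 13.8 CPM (0.43, 0.15 to 0.72) with 3 of 4 libraries in that direction. All 24 Olfr115 UMIs of the class lay in the Cpa6-led cluster.

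Among cortical neurons Dnase1l3 was highest in L5 ET-like nuclei, the long-range output cells of layer 5. The 4 libraries gave 18.5, 34.2, 24.4 and 20.9 CPM there, against 8.96, 5.98, 20.1 and 6.62 CPM in L2/3 IT-like nuclei. The highest L2/3 IT-like library overlapped the L5 ET-like range, but within each library L5 ET-like nuclei were higher. Striatal medium spiny neuron-like nuclei gave 11.7, 10.6, 45.1 and 79.0 CPM, the last from 1 UMI in 1 nucleus, and overlapped both ranges. Their pooled level was 16.9 CPM (12.3 to 22.7). The pooled level was 23.9 (21.5 to 26.6) against 5.79 CPM in the other excitatory nuclei, a log2 ratio of 2.05 (1.85 to 2.25), with 2.97% of all genes called higher in L5 ET-like nuclei. A UMI was found in 192 of 955 nuclei (20.1%), against 0.412% of oligodendrocyte-like nuclei. L5/6 NP-like nuclei had no Dnase1l3 UMI among 435, which by the same 3-count limit allows a share of up to 0.690%. Abhd6, 8.3 kb away on mm10 on the opposite strand, had an r of 0.27, and Dnase1l3 was found in 20.4% of L5 ET-like nuclei with an Abhd6 UMI and in 19.8% of those without. Of the other DNase genes, 5 of 8 could be called, with none higher in neurons and 2 lower, beside 14.5% and 26.3% of all genes.

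C7 was spread over several excitatory subclasses and was not called in any subclass on the higher side. Sst-like and Lamp5-like nuclei had no C7 UMI, and L6b-like nuclei had 3, all in library 1. Its level in L5/6 NP-like nuclei was 8.05, 13.8, 7.34 and 6.71 CPM and in L6 CT-like nuclei 4.75, 9.38, 7.46 and 8.18 CPM, with overlapping ranges, and L5 IT-like nuclei followed at 5.84, 5.83, 8.55 and 5.68 CPM. L2/3 IT-like nuclei were lower than the other excitatory nuclei, at 1.87 against 5.86 CPM (log2 ratio -1.65, -2.23 to -1.12). The class-wide level of L6 CT-like nuclei hid the difference between their clusters given above. The other terminal complement genes listed, C6, C8a, C8b, C8g and C9, had 9 to 80 UMIs each, too few to be called. Of the 14 genes of the complement list, regulators included, 8 could be called. None was higher in neurons and 6 were lower, beside 14.5% and 26.3% of all genes, with C1qa at -2.51 and C1qb at -2.83. The median log2 ratio of the 8 was -2.67 beside -0.42 over all genes. No neighbour of C7 had a positive r, and Rpl37, 52.9 kb away, had -0.57.

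Dcdc2c was highest in L5/6 NP-like nuclei, at 10.1, 10.6, 22.0 and 13.4 CPM. In L2/3 IT-like nuclei it stood at 7.42, 7.76, 5.29 and 8.48 CPM, and these 2 ranges did not overlap. In L5 ET-like nuclei it stood at 6.18, 6.68, 10.15 and 5.84 CPM. The highest of these libraries overlapped the L5/6 NP-like range, but within each library L5/6 NP-like nuclei were higher. The pooled level was 12.8 (9.46 to 16.9) against 4.97 CPM in the other excitatory nuclei (log2 ratio 1.36, 0.91 to 1.79), on 49 UMIs in 35 of 435 nuclei. L6b-like nuclei had 3 UMIs in all and Vip-like and Lamp5-like nuclei none. Its nearest neighbour, the ribosomal protein gene Rps7 at 78.5 kb, had an r of -0.64. Of 6 doublecortin-domain genes that could be called, Dcx (1.95) and Dclk3 (2.06) were higher in neurons and none was lower, beside 14.5% and 26.3% of all genes.

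**Figure D3:**
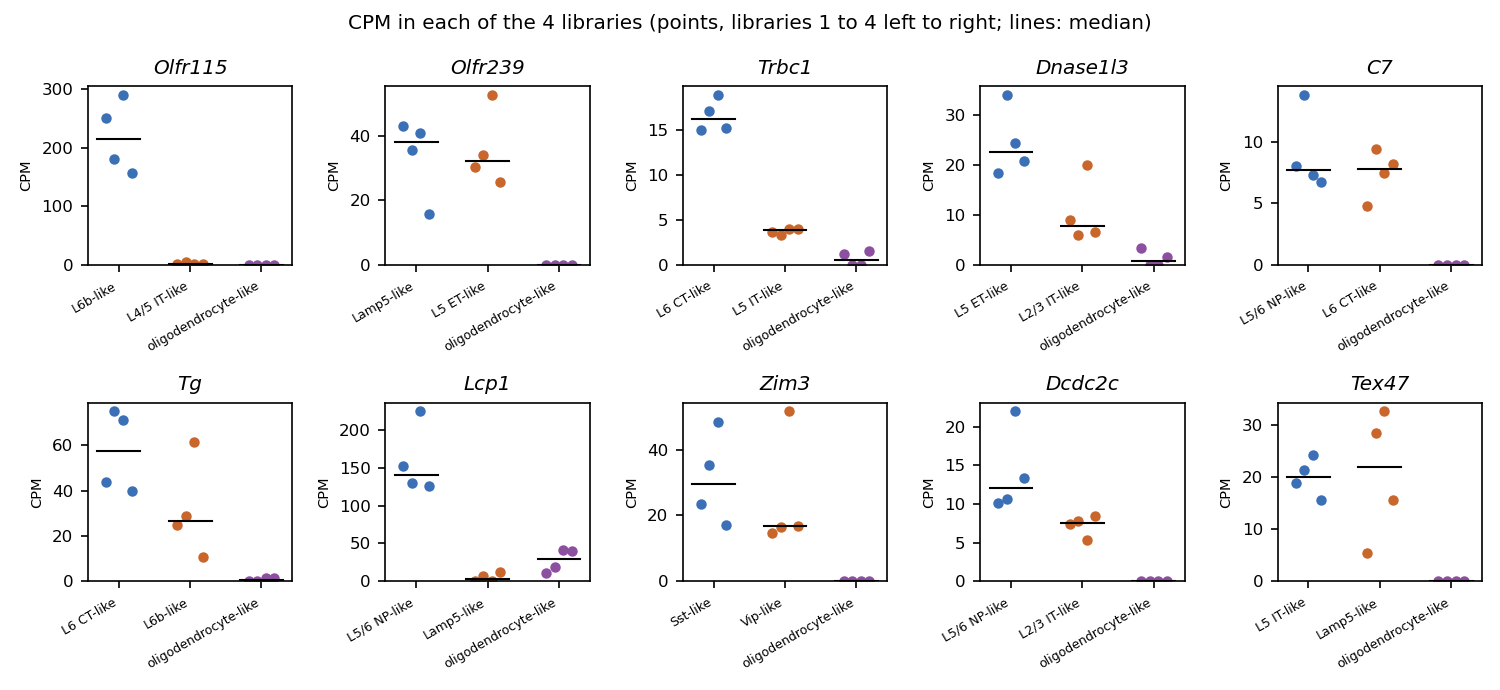
Level of each of the 10 genes (CPM, linear axis from 0) in each of the 4 libraries, for its highest and second neuronal class and for oligodendrocyte-like nuclei; each point is 1 library, from 1 to 4, and lines are medians. Classes are separated in every library for Olfr115, Lcp1 and Trbc1 and overlap for Olfr239 and C7.

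The remaining genes lay across classes rather than in 1. Olfr239 was found in every neuronal subclass, at 17.0 CPM in L5/6 NP-like to 33.2 CPM in Lamp5-like nuclei, and at 36.8 CPM in striatal medium spiny neuron-like nuclei. In Lamp5-like nuclei the libraries gave 43.2, 35.5, 40.8 and 15.6 CPM and in L5 ET-like nuclei 30.4, 33.9, 52.8 and 25.6 CPM, so that the order of these 2 is within their spread. A UMI was found in 35.0% of L5 ET-like nuclei and in none of 972 oligodendrocyte-like and 507 Inpp5d Runx1 nuclei. No subclass was called.

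Olfr55, the near-copy, had an r of 0.92 with Olfr239, and Morc2b (0.97), Zfp955a (0.95) and Olfr1564 (0.95) nearby were as close or closer, all on the opposite strand. In the 6 classes with at least 100 Olfr55 UMIs there were 140 to 174 Olfr239 UMIs per 100 of Olfr55, with a median of 155. Olfr239 was found in 20.9% of the 8121 neurons without an Olfr55 UMI, 34.2% of those with 1 to 2 and 39.3% of the 28 with 3 to 9, whose median depth was 10272, 12309 and 19941.5 UMIs. The share therefore moved with depth as well as with Olfr55, and the part of each was not tested.

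Tex47 was highest in L5 IT-like, Lamp5-like and Pvalb-like nuclei. Its level was 18.8, 21.3, 24.3 and 15.6 CPM in L5 IT-like and 14.5, 23.8, 18.5 and 14.5 CPM in Pvalb-like nuclei, and these overlap. Against the other excitatory subclasses L5 IT-like nuclei had a log2 ratio of 2.29 (2.06 to 2.52, 2.11% of genes called higher) and L6 IT-like nuclei one of 1.14 (0.88 to 1.40, 1.7%). Among inhibitory subclasses it was called higher in Pvalb-like nuclei (1.05, 0.58 to 1.53, 3.35%) and lower in Sst-like nuclei (-2.78).

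The whole Tex47 gene (chromosome 5, 7304119 to 7311491, plus strand, 7.4 kb) lies inside the 575.7 kb of Zfp804b, a zinc finger gene on the opposite strand and 1 of the markers by which L6 IT-like nuclei were named. None of the 3623 exon bases of Tex47 coincides with an exon of Zfp804b. The r between them was 0.96, above that of every other gene compared. There were 0.270 to 2.00 Tex47 UMIs per 100 of Zfp804b over 16 classes, with a median of 1.17. A Tex47 UMI was found in 7 of 4427 neurons without a Zfp804b UMI (0.158%), in 2.45% of those with 1 to 2, 5.97% with 3 to 9 and 24.1% of the 2007 with 10 or more. These groups mix neuronal classes, and their median depth went from 9712 to 13268 UMIs. Within L5 IT-like nuclei alone these shares were 0 of 137, 3 of 80, 13 of 198 and 212 of 696 nuclei. How many Tex47 UMIs were reads of Zfp804b was not tested.

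Zim3 was highest in Sst-like, Vip-like and L6b-like nuclei. The libraries gave 23.4, 35.4, 48.5 and 17.2 CPM in Sst-like, 14.7, 16.6, 51.7 and 16.7 CPM in Vip-like and 17.8, 25.8, 35.8 and 15.2 CPM in L6b-like nuclei. Library 3 was highest and the classes overlap. It was called higher in L6b-like nuclei than in the other excitatory nuclei (log2 ratio 1.64, 1.19 to 2.05) and in Sst-like than in the other inhibitory nuclei (1.04, 0.65 to 1.43, 2.55% of all 10373 genes).

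The annotation calls Zim3 (chromosome 7, 6955685 to 6977420, minus strand) an antisense gene. It overlaps Usp29, a deubiquitinase gene of the same imprinted domain, over 11.5 kb, and 2582 of its 3755 exon bases lie in exons of Usp29. The r between them was 0.95, above that of every other gene compared, and Peg3, 225.3 kb away, had 0.87. Per 100 Usp29 UMIs there were 1.59 to 5.17 Zim3 UMIs over 15 classes, with a median of 3.21. Zim3 was found in 3.15% of neurons without a Usp29 UMI, 6.26% with 1 to 2, 11.9% with 3 to 9 and 24.03% with 10 or more. These groups mix neuronal classes, and their median depth went from 9482 to 14274 UMIs. Within Sst-like nuclei alone the shares did not rise steadily, at 4 of 26, 6 of 76, 27 of 194 and 43 of 129 nuclei. Median depth there went from 6042.5 to 10775 UMIs. How many Zim3 UMIs were reads of Usp29 was not tested. Where strand was not used in counting, reads of an antisense pair cannot be told apart. Of the Peg3 domain list 4 genes could be called, and Usp29 was the 1 higher in neurons (3.26, 3.07 to 3.46), beside 14.5% of all genes.

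**Figure D4:**
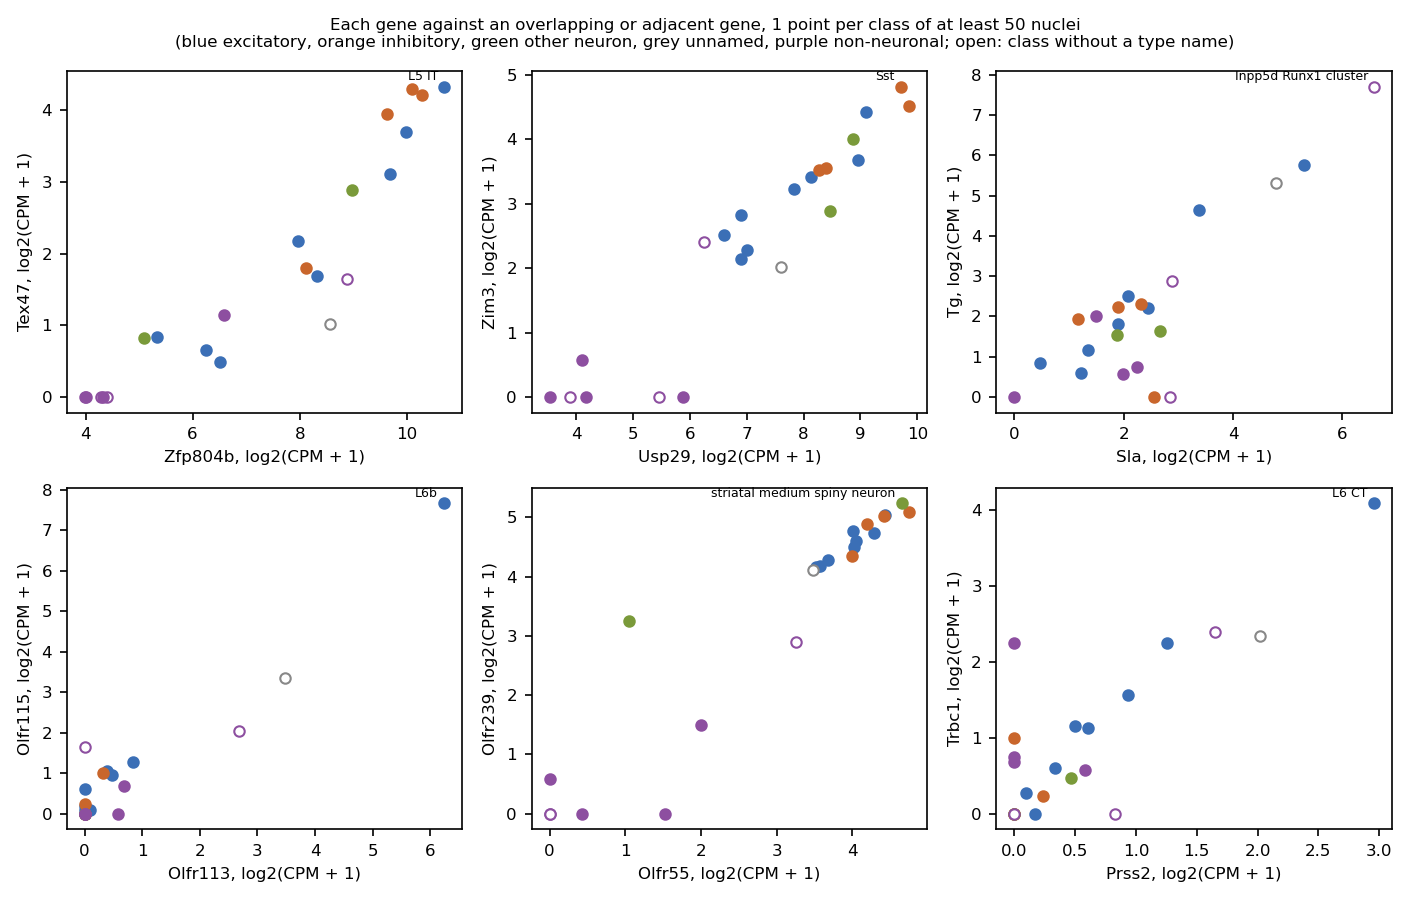
Level of 6 of the genes against a neighbouring gene, as log2(CPM + 1); filled points are named classes and open points clusters without a type name, all of at least 50 nuclei. Tex47 and Zfp804b (r 0.96) and Zim3 and Usp29 (r 0.95) vary over the whole range of classes, while among named classes the Olfr115 and Olfr113 pair is high in L6b-like nuclei alone.

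A high r is common among overlapping genes in these nuclei. Over 2111 pairs of genes that overlap on opposite strands the median r across the 18 classes was 0.64, and 22.2% reached 0.9. Over 2460 pairs on the same strand within 15 kb the median was 0.27 and 4.31% reached 0.9. The pairs of Tex47 and of Zim3 with their overlapping genes thus lay in the upper part of the first range and the Tg and Sla pair above its median.

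**Figure D5:**
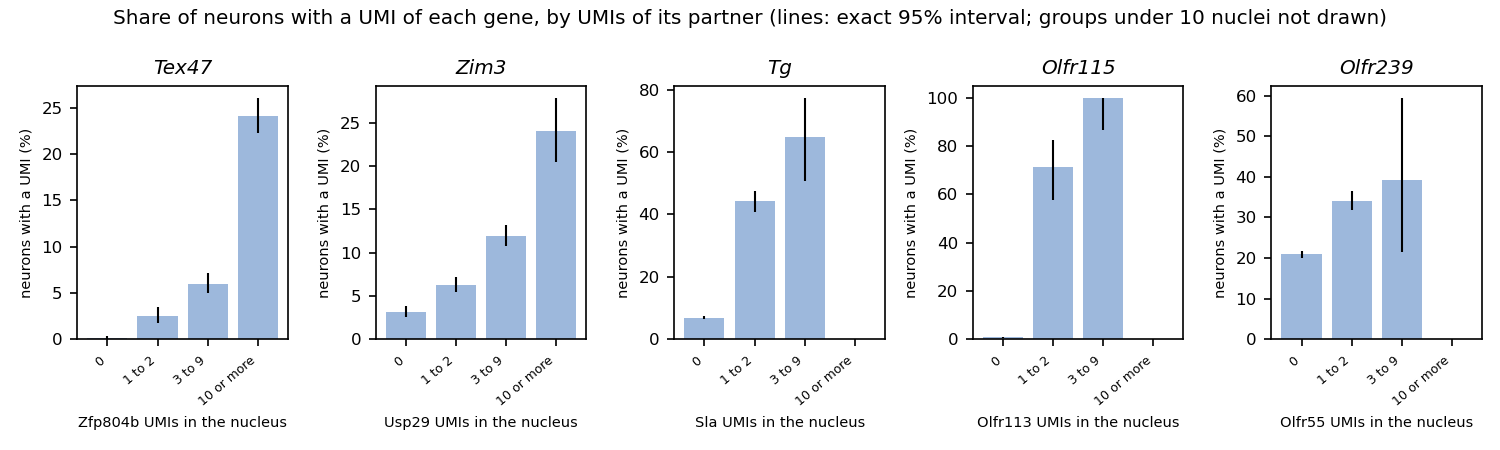
Share of neurons with a UMI of each gene, by the number of UMIs of its neighbour in the same nucleus (0, 1 to 2, 3 to 9, 10 or more); bars are shares of nuclei in percent and lines are exact 95% binomial intervals. The share rises with the neighbour's UMIs for Tex47 (0.158% to 24.1%), Zim3 (3.15% to 24.03%), Tg and Olfr115, and less for Olfr239. Neuronal classes are mixed in these groups, and depth differs between them.

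Beyond their neighbours, the genes whose levels were most like each of the 10 were listed by r across the 18 classes among genes with at least 500 UMIs. For Olfr115 they were Fam163b (0.80), Ccn2 (0.79), 1 of the fixed L6b markers, and Rxfp2 (0.76). Trbc1 had Slc35b3 (0.82), Mill2 (0.74) and Gm10635 (0.67), and Tg had Usp46os1 (0.80), Ighm (0.79) and Scube2 (0.79). Dnase1l3 had Ptk2b (0.87), 2010300C02Rik and Gm17227 (0.85 each), C7 had Car7 (0.87), Nrp1 (0.86) and 2900026A02Rik (0.85), and Dcdc2c had Gm30094 (0.90), Gm3364 (0.89) and Extl1 (0.88). For Lcp1 they were Socs6 (0.81), Rock1 and Fbxo38 (0.77 each). Olfr239 had Ppargc1b and Snhg14 (0.98 each), Zim3 had Ripor2 (0.94) and Zfp385b (0.92) after Usp29, and Tex47 had Gm44079 (0.87) and Pparg (0.83) after Zfp804b. Over all 22 clusters of at least 50 nuclei, unnamed ones included, the r was lowest for Usp46os1 with Tg (0.37), Slc35b3 with Trbc1 (0.45), Fbxo38 with Lcp1 (0.48), Scube2 with Tg (0.60), Ccn2 with Olfr115 (0.62) and Fam163b with Olfr115 (0.66).

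Over all genes 14.5% were higher in neurons and 26.3% lower, and these shares stand beside each list count that follows. Of 10 leukocyte actin and surface genes that could be called none was higher in neurons and 6 were lower, and the plastin gene Pls3 was at 0.29. Of 8 thyroid genes 3 were higher in neurons, among them Slc26a4, an anion transporter (4.02, 3.14 to 5.08), and the thyroid hormone receptor Thrb (1.90, 1.84 to 1.97), and 2 were lower, while 3 of the 16 listed had no UMI. Of 38 testis-expressed genes 12 had no UMI and 13 could be called, with Tex50 (3.99) and Tex29 (1.64) higher and 3 lower. Of 1138 olfactory genes, Gnal among them, 638 had no UMI. Of the 25 that could be called 14 were higher in neurons and 1 was lower, beside 14.5% and 26.3% of all genes. Their median log2 ratio was 1.57, beside -0.42 over all genes. The minimum of 100 UMIs counted both sides and most UMIs were neuronal, so that among sparse genes it favours those high in neurons. Nothing is read from this count. Olfr239 and Olfr115 are not counted in that list, but near-copies and neighbours of theirs, such as Olfr55 and Olfr112, are. Gnal, the olfactory G protein, also used in striatum, was at 1.33, and Olfr55 at 3.73.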

How the data were processed

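Single-nucleus RNA was read from the 3′ end with 10x Genomics chemistry. The deposited values are UMI counts per gene and barcode, whole numbers with no normalization. Per the submitters' processing notes the authors used Cell Ranger 7.1.0 and build mm10; whether intronic reads or strand entered the counts is not given in the sources used here.

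The 10 genes and all gene lists were chosen with earlier results of these data known. Barcodes were filtered on 500 genes, 800 UMIs and a mitochondrial share of 5%, which 13270 of 22402 met. Scrublet (scanpy 1.11.5) removed 289 doublets above a score of 0.25. Clustering (2000 variable genes without the 10 genes and their neighbours, 30 principal components, 15 neighbours, Leiden resolution 1) gave 26 clusters. A cluster took a class name when 3 or more fixed markers were enriched 2-fold and reached 10 CPM. A shallow cluster with none of that class's markers among its 10 leading genes stayed unnamed. A rule that leaves a neuronal cluster unnamed when it shares 3 of its 10 leading genes with a non-neuronal cluster was added after clusters had been seen.

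UMIs were summed per class; levels have exact Poisson, ratios exact conditional binomial and shares Clopper-Pearson intervals, covering counting error only. With 1 pooled matrix no p-value was computed. Calls and intervals were tested on simulated data. Named genes were the 10, overlapping genes, the nearest neighbours with at least 100 UMIs, the 3 most alike by Pearson r and, per list, the 3 with most UMIs; further list genes, near-copies and other neighbours within 250 kb were named after their values were seen. Some genes that this rule names are not reported here. Positions came from GENCODE M21, to which 32158 of 32287 features matched. Alternatives varied filters, resolution, doublets, depth, weighting, libraries and calling limits. Python 3.11.15, numpy 2.4.6, scipy 1.17.1, pandas 2.3.3, igraph 0.11.9 and biopython 1.88 were used.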

Additional observations from a re-analysis of the deposited data

How the results depend on the processing

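Of the 10 genes, 8 were called higher in neurons and 7 in excitatory nuclei, beside 14.5% and 9.14% of all genes. With at most 1% mitochondrial UMIs, which left 181 of 2729 non-neuronal nuclei, 4 were called higher in neurons (Olfr115, Trbc1, Dnase1l3 and C7 were not). In excitatory nuclei 5 were called higher. The shares of all genes were 6.27% and 8.13%. Thinned to 1500 UMIs per nucleus, where fewer genes reach 100 UMIs, 2 were higher in neurons and 2 in excitatory nuclei. The shares of all genes were 13.7% and 7.50%. Leaving out the Inpp5d Runx1 cluster, added after seeing the data, gave 9 higher in neurons, beside 15.16% of all genes. Leaving out 1 library at a time gave 8 and 7 each time, as did the other planned settings. For neurons, leaving out the Hba-a1 Hbb-bs cluster, also added later, gave 8 as well. Beside these counts stood 12.82% to 15.17% of all genes in neurons and 8.65% to 9.98% in excitatory nuclei. With at most 1% mitochondrial UMIs the Olfr115 ratio between neurons and non-neuronal nuclei turned to -0.17, and that of Dnase1l3 went to 0.74, of Trbc1 to 1.198 and of Olfr239 to 1.42; the cause was not tested. Of 139 alternative neuron ratios of single genes 23 moved beyond the counting interval, of 115 excitatory ratios 10. The subclass with the highest level changed in 12 of 120 cases, all for Olfr239 or Tex47, whose leading classes lie close together; in 3 of them no cluster was named Lamp5-like. Over all clusters the r of Lcp1 and Lrrc63 was 0.65. The excitatory ratio of Olfr115 rested on 5 inhibitory UMIs and was 6.19 with up to 20% mitochondrial UMIs. Few non-neuronal UMIs limit every ratio of a gene low outside neurons. The planned count of A-rich stretches was not run, since no genome sequence was used here. No paired analysis was possible because nothing ties a library to a sample.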
